A study of Mus musculus with 40 samples.

Results

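The genes of branched-chain amino acid degradation, which break down valine, leucine and isoleucine, were compared between the gastrocnemius and the quadriceps of mice on a high fat diet (HFD) and mice on a low fat diet (LFD). The 31 genes were chosen by name as members of the pathway, from transport of the amino acids into mitochondria to the entry of their carbon into the citric acid cycle, and all 31 were found among the 16475 genes of the array that are not controls. The study itself reported, from a test of gene sets in LFD mice, that a set for this pathway was down-regulated in the gastrocnemius. The results below come from the same arrays and are not independent of that report. The gene listed as Mut was matched as Mmut, its current symbol. The array gives 1 signal intensity for each gene in each muscle, on a linear scale. Tests were run on the 6479 genes (39.3%) whose signal averaged over 20 on the 40 arrays, and 28 of the 31 members were among them. Bcat1, Abat and Aldh7a1 were under that limit.

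RNA came from the gastrocnemius and the quadriceps of 20 male mice, so that 4 groups of 10 arrays were compared, named here HFD gastrocnemius, HFD quadriceps, LFD gastrocnemius and LFD quadriceps. All mice ate a low fat run-in diet for 3 weeks from the age of 9 weeks. They then ate either a high fat diet or the low fat diet for 8 weeks, both with palm oil as fat by the study's methods. The mice were 20 weeks old when both muscles were taken. Their strain is C57BL/6J in the study's methods and is spelled C56BL/6J in the labels, no transgene or deletion is named, and each muscle of each mouse has 1 array. The extraction text of the labels names the quadriceps for all 40 arrays, and the muscle was taken from the titles and the tissue labels. The summed signal of 6 skeletal muscle genes (Acta1, Ckm, Myh4, Actn3, Pvalb and Ttn) was 92590 to 112566 on all 40 arrays, and that of 3 liver genes (Alb, Apoa1 and Ttr) was 12.5 to 20.8.

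Skeletal muscle is a main site at which branched-chain amino acids lose their nitrogen, because the liver has little of the aminotransferase. Bcat2 moves the amino group onto 2-oxoglutarate inside the mitochondrion, and the resulting branched-chain keto acids are decarboxylated by the branched-chain ketoacid dehydrogenase complex. This step is irreversible, and it is controlled by phosphorylation: the kinase Bckdk switches the complex off and the phosphatase Ppm1k switches it on. From there each amino acid has its own mitochondrial branch. Leucine yields acetyl-CoA and acetoacetate, valine yields propionyl-CoA, and isoleucine yields both acetyl-CoA and propionyl-CoA, which enters the citric acid cycle as succinyl-CoA.

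Over both diets, 11 of the 28 members tested (39.3%) were lower in the gastrocnemius at a false discovery rate (FDR) under 0.05, against 9.83% of all genes tested, and 1 member was higher, against 8.13% of all genes. The 11 were Bckdha, Bckdhb, Dbt, Mccc1, Auh, Acadsb, Acad8, Hibadh, Aldh6a1, Pcca and Oxct1, and the member that was higher was Acat1. The differences were small, and no member was past a fold of 1.3 over both diets, as 1.82% of all genes were in the lower direction. The median log2 fold change of the 28 members, gastrocnemius over quadriceps, was -0.12, against -0.014 for all genes tested, and 22 members had a fitted value below 0, as did 55.9% of all genes.

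**Figure D1:**
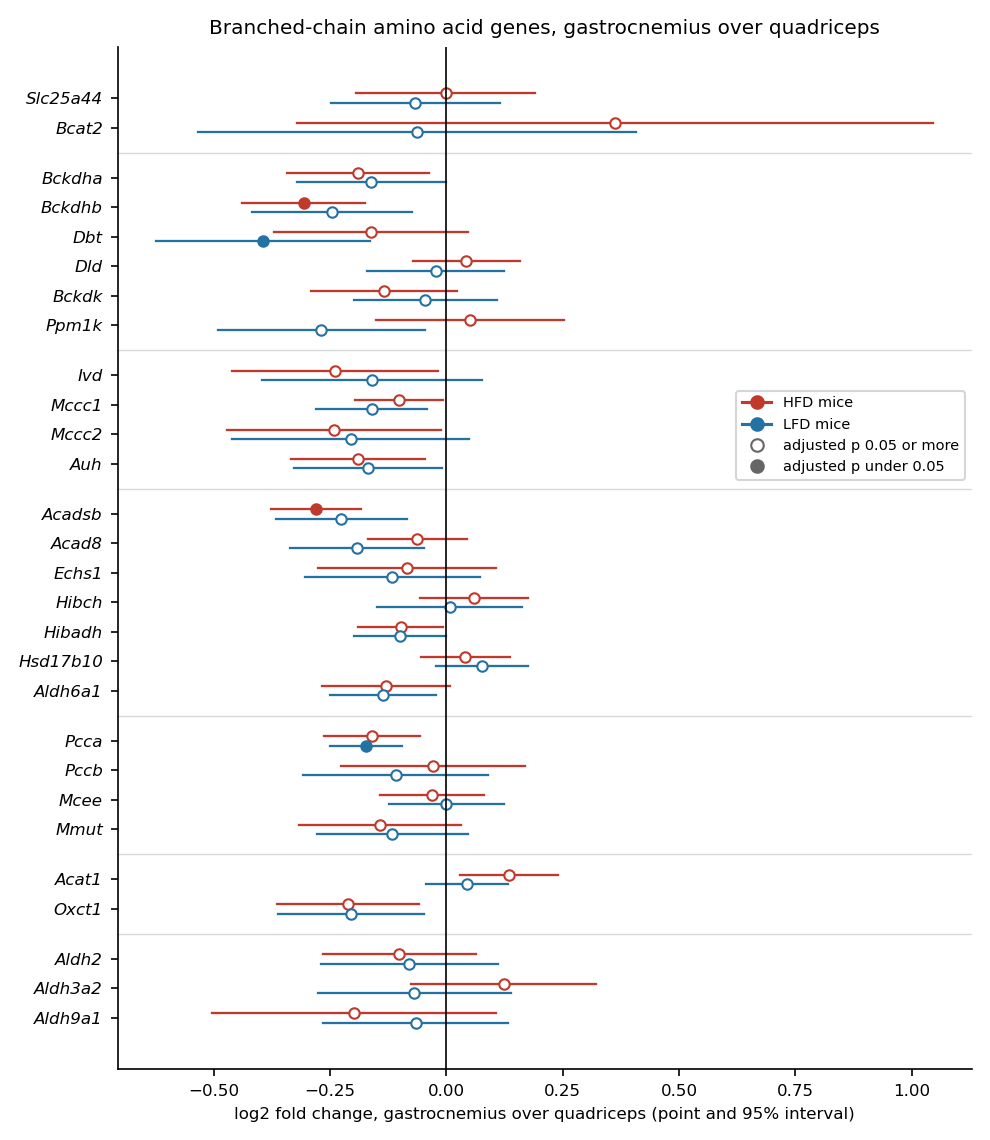
Log2 fold change of gastrocnemius over quadriceps (x axis) for each of the 28 members tested (y axis, grouped by pathway step), in HFD mice and in LFD mice. Points are estimates, bars are 95% intervals, and filled points have an adjusted p under 0.05 within that diet, which is the case for Bckdhb and Acadsb in HFD mice and for Dbt and Pcca in LFD mice.

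Within a diet fewer members passed. In HFD mice 2 members were lower in the gastrocnemius (Bckdhb and Acadsb), against 3.3% of all genes, and 0 were higher by limma, against 3.32% of all genes, with 1 member (Acat1) higher at an unadjusted p under 0.05 (7.89% of all genes). No member was past a fold of 1.3 in HFD mice, against 1.54% of all genes in the lower direction. In LFD mice 2 members were lower (Dbt and Pcca), against 2.53% of all genes, and 0 were higher, against 2.69%, with 0 higher at an unadjusted p under 0.05 as well (8.94% of all genes). Before adjustment, 10 members in HFD mice and 12 in LFD mice were lower at a p under 0.05, against 10.8% and 10.1% of all genes. With the mouse as a block, which uses that both muscles came from the same animal, 2 members were lower in HFD mice and 5 in LFD mice (Bckdhb, Dbt, Mccc1, Acadsb and Pcca), or 8 in LFD mice with the mouse as a random effect. Over both diets the block on the mouse gave 13 lower members, which added Ivd and Mccc2 to the 11, and Acat1 then had an adjusted p of 0.0566 (0.00959 to 0.333 over the alternatives tried). The shares of all genes above are from fits without the block, and none is given here for the fits with it.

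Markers of some other cells and of fiber types differed between the muscles. Over both diets, 0 of 3 macrophage genes and 0 of 3 endothelial genes tested passed in either direction. The summed signal of 6 neutrophil genes, which include S100a8 and S100a9, was 31.9 to 41.9 in HFD gastrocnemius, against 31.1 to 13095 in HFD quadriceps, and 31.3 to 39.2 in LFD gastrocnemius, against 31.8 to 2589.7 in LFD quadriceps, so that some quadriceps arrays stood far above all gastrocnemius arrays. The summed signal of 6 adipocyte genes, which include Adipoq and Fabp4, was 5702 to 11380 in HFD gastrocnemius, against 6992 to 11714 in HFD quadriceps, and 5699 to 7517 in LFD gastrocnemius, against 6558 to 11180 in LFD quadriceps. Fabp4 made up most of this sum. Its medians were 5682.6 in HFD gastrocnemius, against 6573.5 in HFD quadriceps, and 5287.9 in LFD gastrocnemius, against 6042.4 in LFD quadriceps. Those of Adipoq were 653.2, against 1271.6, and 583.8, against 851.2, in the same order. Slow fiber genes (6, which include Myh7 and Tnni1) went the other way, with 6529 to 11307 in HFD gastrocnemius, against 86.5 to 4837 in HFD quadriceps, and 5294 to 12142 in LFD gastrocnemius, against 163.4 to 6976 in LFD quadriceps. The Schwann cell gene Mbp also had more signal, with 68.9 to 213.8 in HFD gastrocnemius, against 46.8 to 67.1 in HFD quadriceps, and 77.5 to 213.9 in LFD gastrocnemius, against 49.7 to 72.1 in LFD quadriceps. Over both diets, 6 of 6 neutrophil genes and 5 of 6 adipocyte genes were lower in the gastrocnemius, and 6 of 6 slow fiber genes were higher, as were Mbp (log2 fold change 1.27 ± 0.12, adjusted p = 3.28e-10) and Pmp22, a further Schwann cell gene (0.70 ± 0.10, adjusted p = 2.01e-06). Of 5 fibroblast and tendon genes, Scx was higher (0.50 ± 0.10, adjusted p = 0.000366) and Col3a1 was lower (-0.38 ± 0.068, adjusted p = 6.94e-05), with sums of 2602.6 to 4842.1 in HFD gastrocnemius, against 3260.1 to 5327.3 in HFD quadriceps, and 3112.9 to 4193.6 in LFD gastrocnemius, against 3246.3 to 4526.1 in LFD quadriceps. Of 2 genes listed as fast oxidative fiber genes, Myh2 was higher (0.46 ± 0.081, adjusted p = 4.15e-05). Myh1 had a fitted value in the other direction (-0.094) and did not pass. The study takes Myh1 as a marker of type IIx fibers, which it describes as mainly glycolytic. The sums of both genes were 22639.3 to 28422.6 in HFD gastrocnemius, against 17540.1 to 25919.2 in HFD quadriceps, and 20237.4 to 25680.6 in LFD gastrocnemius, against 16624.5 to 24247.0 in LFD quadriceps. In bulk muscle, fewer cells of a type and less RNA per cell cannot be told apart.

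Fits with a marker sum as a covariate were added after the data were seen. Fabp4 weighs most in the adipocyte sum, so that its fit does not adjust for all adipocyte genes alike. With the neutrophil sum, 6 members were lower over both diets (Bckdhb, Dbt, Auh, Acadsb, Acad8 and Pcca), and with the adipocyte sum 9 were (Bckdha, Bckdhb, Ivd, Mccc2, Auh, Acadsb, Acad8, Hibadh and Pcca). The standard errors were larger in these fits, and no share of all genes from the same fits is set beside these counts. Of the members that no longer passed with the neutrophil sum, Bckdha had a log2 fold change of -0.17 ± 0.066 (-0.18 ± 0.053 without the sum), Mccc1 of -0.11 ± 0.043 (-0.13 ± 0.035), Aldh6a1 of -0.12 ± 0.052 (-0.13 ± 0.043), Oxct1 of -0.15 ± 0.063 (-0.21 ± 0.053) and Hibadh of -0.056 ± 0.036 (-0.099 ± 0.031), so that the estimate was smaller by the largest share for Hibadh. Of those that no longer passed with the adipocyte sum, Dbt had -0.22 ± 0.091 (-0.28 ± 0.076), Mccc1 -0.11 ± 0.043, Aldh6a1 -0.094 ± 0.051 and Oxct1 -0.16 ± 0.063. Bckdhb, Auh, Acadsb, Acad8 and Pcca were lower in the fit over both diets with either sum. In HFD mice Bckdhb and Acadsb were lower with either sum. In LFD mice 1 member (Pcca) was lower with the neutrophil sum and 0 by limma with the adipocyte sum. There Pcca had -0.15 ± 0.042 (adjusted p = 0.0475) with the neutrophil sum and -0.14 ± 0.046 (adjusted p = 0.153) with the adipocyte sum, against -0.17 ± 0.037 with neither, and Dbt had -0.35 ± 0.13 (adjusted p = 0.143) and -0.30 ± 0.14 (adjusted p = 0.305), against -0.39 ± 0.11. The part of the slow fiber, fast oxidative fiber, Schwann cell and connective tissue genes in the difference was not tested.

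At the committed step, 3 of the 6 members tested were lower over both diets, all of them subunits that only this complex uses. Bckdhb, the beta subunit of the decarboxylase, was lower in the gastrocnemius in 10 of 10 HFD mice and in 10 of 10 LFD mice. Its lowest, median and highest signals were 400.6, 449.9 and 564.1 in HFD gastrocnemius, against 472.7, 557.7 and 650.3 in HFD quadriceps. In LFD mice they were 352.2, 530.5 and 586.7 in the gastrocnemius, against 489.3, 617.1 and 689.4 in the quadriceps. The groups overlapped in both diets although each mouse had less in its gastrocnemius. The share of all genes that were lower in every mouse is not given here. The log2 fold change was -0.31 ± 0.064 (SE, adjusted p = 0.00366) in HFD mice and -0.25 ± 0.083 (adjusted p = 0.0897, or 0.00767 with the mouse as a block and 0.00767 to 0.274 over the alternatives tried) in LFD mice, and over both diets it was -0.28 ± 0.052 (adjusted p = 0.000145), a fold of 0.826.

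Dbt, the transacylase that forms the core of the complex, had 155.8, 200.6 and 288.1 (lowest, median and highest) in HFD gastrocnemius, against 165.8, 227.4 and 246.4 in HFD quadriceps. In LFD gastrocnemius the values were 150.2, 189.0 and 230.7, against 188.3, 238.6 and 354.4 in LFD quadriceps. The groups overlapped in each diet, and the highest array of the HFD mice was a gastrocnemius. Dbt was lower in the gastrocnemius of 7 of 10 HFD mice and 9 of 10 LFD mice, with a log2 fold change of -0.16 ± 0.10 (adjusted p = 0.44) in HFD mice and -0.39 ± 0.11 (adjusted p = 0.039) in LFD mice. With a fold of 0.761 in LFD mice, it was the member past both the FDR and the fold of 1.3, against 1.1% of all genes in that direction. This call was lost when any 1 of 7 LFD mice was left out (147, 148, 153, 155, 156, 159 or 160), with an adjusted p of up to 0.109, whereas the value over both diets, -0.28 ± 0.076 (adjusted p = 0.0077), passed whichever mouse was left out.

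Bckdha, the alpha subunit, which carries the sites that the kinase phosphorylates, had 567.4, 655.7 and 730.2 in HFD gastrocnemius, against 622.1, 711.0 and 932.4 in HFD quadriceps. In LFD gastrocnemius it had 463.5, 684.7 and 750.0, against 613.0, 722.5 and 892.4 in LFD quadriceps. The ranges overlapped widely, and the gastrocnemius was lower in 6 of 10 HFD mice and 8 of 10 LFD mice. Over both diets its log2 fold change was -0.18 ± 0.053 (adjusted p = 0.0178).

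**Figure D2:**
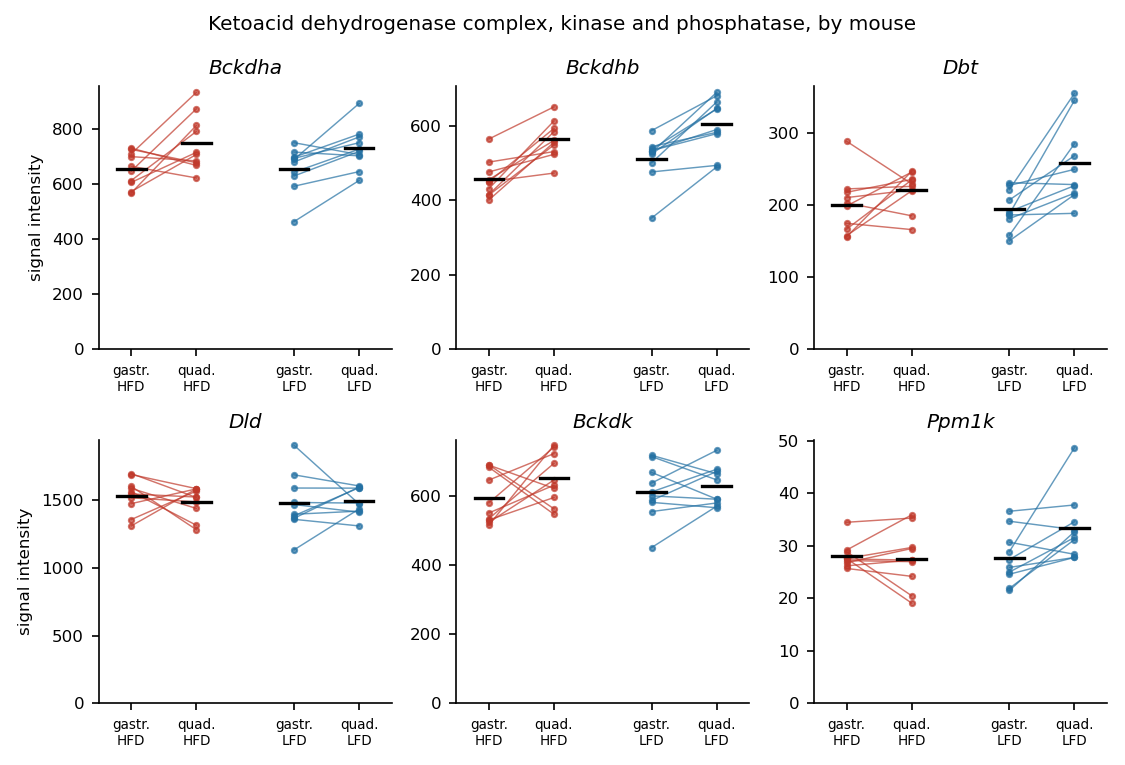
Signal intensity (y axis) of genes of the branched-chain ketoacid dehydrogenase step in the gastrocnemius and the quadriceps of each mouse (x axis), for HFD and LFD mice, with a line joining the muscles of a mouse. Black bars are group means, and each of the 20 lines of Bckdhb is lower at the gastrocnemius.

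The other genes of this step did not pass. Dld, the dehydrogenase that is shared with the pyruvate and 2-oxoglutarate complexes, had 1310, 1555 and 1697 in HFD gastrocnemius, against 1282, 1522 and 1585 in HFD quadriceps, and 1133, 1432 and 1906 in LFD gastrocnemius, against 1310, 1475 and 1605 in LFD quadriceps. Its log2 fold change over both diets was 0.0099, with a 95% interval of -0.081 to 0.10. The kinase Bckdk had a log2 fold change of -0.089 (interval -0.20 to 0.018), with medians of 566.9 in HFD gastrocnemius, against 640.2 in HFD quadriceps, and of 607.5 in LFD gastrocnemius, against 620.0 in LFD quadriceps. The phosphatase Ppm1k had a log2 fold change of 0.050 ± 0.097 in HFD mice (gastrocnemius median 27.55, quadriceps median 27.3) and of -0.27 ± 0.11 in LFD mice (gastrocnemius median 26.65, quadriceps median 32.15, adjusted p = 0.161). Signals of Ppm1k were close to the limit of 20, so that its log2 values depend more on the background than those of the other genes of this step.

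Upstream sequences are shown for Bckdhb and Acadsb, the members that were lower in the gastrocnemius of every mouse on either diet. They were picked by this trait, for which no share of all genes is set beside them. They are the 250 bases before an annotated transcript start (RefSeq, GRCm38.p6, + strand), at chr9:83924887-83925136 for Bckdhb and chr7:131410351-131410600 for Acadsb. Capitals mark GC boxes (GGGCGG, read on either strand) and CACCC boxes (CACCC, read on either strand).
Bckdhb: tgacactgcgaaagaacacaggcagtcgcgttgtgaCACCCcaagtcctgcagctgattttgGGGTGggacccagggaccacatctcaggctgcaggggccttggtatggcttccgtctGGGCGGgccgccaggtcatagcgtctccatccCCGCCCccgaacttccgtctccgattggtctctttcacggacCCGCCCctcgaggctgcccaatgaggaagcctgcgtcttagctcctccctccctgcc
Acadsb: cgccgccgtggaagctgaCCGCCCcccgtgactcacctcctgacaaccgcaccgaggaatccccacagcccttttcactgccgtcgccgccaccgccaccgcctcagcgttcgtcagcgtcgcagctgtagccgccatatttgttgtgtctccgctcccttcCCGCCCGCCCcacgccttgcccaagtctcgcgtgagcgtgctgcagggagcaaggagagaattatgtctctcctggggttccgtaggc
Each window holds 3 GC boxes, and that of Bckdhb also holds 2 CACCC boxes. A further start of Bckdhb, at chr9:83948531-83948780, has a window with 0 of either. RefSeq windows of 250 bases before and 50 after a start were at hand for 24 of the 31 members (29 windows). GC boxes were in 13 of the 29 (44.8%), against 35.7% of all 32851 windows, CACCC boxes in 21 (72.4%), against 57.5%, the NRF1 core TGCGCA in 4 (13.8%), against 7.8%, and the nuclear receptor element AAGGTCA in 0, against 4.7%. Such matches describe the letters of these windows and do not show binding.

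Before the complex, neither gene tested passed. Bcat2, the mitochondrial aminotransferase, varied more between mice than any other member in each of the 4 groups. It had 29.7, 51.95 and 99.6 in HFD gastrocnemius, against 11.9, 43.15 and 120.1 in HFD quadriceps, and 26.6, 44.8 and 101.2 in LFD gastrocnemius, against 22.1, 47.95 and 75.5 in LFD quadriceps. The groups overlapped almost fully, and the coefficient of variation was up to 64.3%, against group medians of 9.9% to 12.4% over the members. Over both diets its log2 fold change was 0.15, with an interval of -0.27 to 0.57. Slc25a44, a mitochondrial carrier of branched-chain amino acids described in brown fat, had a log2 fold change of -0.034 (interval -0.16 to 0.097).

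In the leucine branch, 2 of 4 members were lower over both diets and all 4 had fitted values below 0 in each diet. Mccc1, the biotin-carrying subunit of methylcrotonyl-CoA carboxylase, had 316.3, 351.0 and 392.1 in HFD gastrocnemius, against 352.8, 379.2 and 422.8 in HFD quadriceps. In LFD gastrocnemius it had 337.7, 379.8 and 437.8, against 353.4, 426.2 and 483.6 in LFD quadriceps. The muscles overlapped in both diets, with a lower gastrocnemius in 8 of 10 HFD mice and 9 of 10 LFD mice, and the log2 fold change over both diets was -0.13 ± 0.035 (adjusted p = 0.00686). Auh, the hydratase of the next reaction, had 293.3, 358.8 and 411.9 in HFD gastrocnemius, against 341.6, 404.9 and 468.4 in HFD quadriceps, and 272.9, 367.7 and 408.4 in LFD gastrocnemius, against 328.4, 412.9 and 443.8 in LFD quadriceps. Its groups overlapped too, with a lower gastrocnemius in 8 of 10 mice of each diet and a log2 fold change of -0.18 ± 0.052 (adjusted p = 0.0118).

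Ivd, the dehydrogenase that opens the leucine branch, had a log2 fold change of -0.20 ± 0.080 over both diets (adjusted p = 0.0783, or 0.0158 with the mouse as a block), and was lower in the gastrocnemius of 7 of 10 HFD mice and 8 of 10 LFD mice. For Mccc2, the partner subunit of Mccc1, the value was -0.22 ± 0.084 (adjusted p = 0.0606, or 0.00715 with the block), with the same numbers of mice. Both passed with the mouse or the adipocyte sum in the fit, and neither passed with the neutrophil sum, and over the alternatives tried the adjusted p was 0.0158 to 0.336 for Ivd and 0.00715 to 0.116 for Mccc2.

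The valine and isoleucine branch held 4 lower members among 7 tested. Acadsb, the dehydrogenase of short branched acyl-CoA in isoleucine breakdown, had 231.8, 276.7 and 287.0 in HFD gastrocnemius, against 305.3, 319.8 and 354.1 in HFD quadriceps. The HFD muscles did not overlap for this member, a pattern found for 1.0% of all genes, and for 0.463% of all genes and 0 members in LFD mice. In LFD mice it had 207.6, 307.7 and 321.1 in the gastrocnemius, against 302.3, 342.9 and 363.8 in the quadriceps, where the ranges overlapped. Each of the 20 mice had less Acadsb signal in its gastrocnemius. The log2 fold change was -0.28 ± 0.047 in HFD mice (adjusted p = 0.000526), -0.23 ± 0.067 in LFD mice (adjusted p = 0.0538, or 0.00893 with the mouse as a block and 0.00522 to 0.17 over the alternatives tried) and -0.25 ± 0.040 over both (adjusted p = 9.41e-06), a fold of 0.839.

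Acad8, the isobutyryl-CoA dehydrogenase of valine breakdown, had 30.0, 33.4 and 36.1 in HFD gastrocnemius, against 29.7, 34.2 and 40.7 in HFD quadriceps, and 26.5, 32.85 and 37.0 in LFD gastrocnemius, against 33.2, 35.5 and 45.6 in LFD quadriceps. These ranges overlapped, and its log2 fold change of -0.13 ± 0.042 over both diets (adjusted p = 0.032) no longer passed when any 1 of 6 mice was left out (142, 143, 144, 146, 147 or 157), with an adjusted p of up to 0.087. Hibadh, which oxidizes 3-hydroxyisobutyrate, had 1227, 1352 and 1455 in HFD gastrocnemius, against 1358, 1435 and 1626 in HFD quadriceps, and 1110, 1363 and 1433 in LFD gastrocnemius, against 1274, 1470 and 1544 in LFD quadriceps. It was lower in the gastrocnemius of 8 of 10 HFD mice and 9 of 10 LFD mice although the groups overlapped, with a log2 fold change of -0.099 ± 0.031 (adjusted p = 0.0194).

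Aldh6a1, the methylmalonate semialdehyde dehydrogenase at the end of the valine branch, had 1243, 1535 and 1848 in HFD gastrocnemius, against 1368, 1689 and 1929 in HFD quadriceps, and 1381, 1587 and 1770 in LFD gastrocnemius, against 1502, 1766 and 2048 in LFD quadriceps. The groups overlapped widely, with a lower gastrocnemius in 6 of 10 HFD mice and 7 of 10 LFD mice. Over both diets its log2 fold change was -0.13 ± 0.043 (adjusted p = 0.0249), and it no longer passed when any 1 of 3 mice was left out (146, 148 or 156), with an adjusted p of up to 0.0554. The other members of the branch did not pass. Their log2 fold changes over both diets were -0.10 (interval -0.23 to 0.032) for Echs1, a hydratase that fatty acid oxidation also uses, 0.033 (-0.061 to 0.13) for Hibch, the hydrolase of the valine branch, and 0.058 (-0.0052 to 0.12) for Hsd17b10, a dehydrogenase of the isoleucine branch.

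Of the 4 genes that turn propionyl-CoA into succinyl-CoA, 1 was lower. Pcca, the biotin-carrying subunit of propionyl-CoA carboxylase, had 284.6, 319.8 and 341.0 in HFD gastrocnemius, against 313.6, 353.3 and 408.2 in HFD quadriceps. In LFD gastrocnemius it had 313.5, 329.0 and 369.2, against 353.0, 376.4 and 399.0 in LFD quadriceps. The ranges overlapped in both diets, and 9 of 10 mice of each diet had less in the gastrocnemius. The log2 fold change was -0.16 ± 0.050 in HFD mice (adjusted p = 0.0599), -0.17 ± 0.037 in LFD mice (adjusted p = 0.00676) and -0.17 ± 0.029 over both diets (adjusted p = 4.15e-05). Pccb, the partner subunit in the same enzyme, had a log2 fold change of -0.069 (interval -0.21 to 0.070), the epimerase Mcee one of -0.016 (-0.095 to 0.063) and the mutase Mmut one of -0.13 (-0.25 to -0.013, adjusted p = 0.126).

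**Figure D3:**
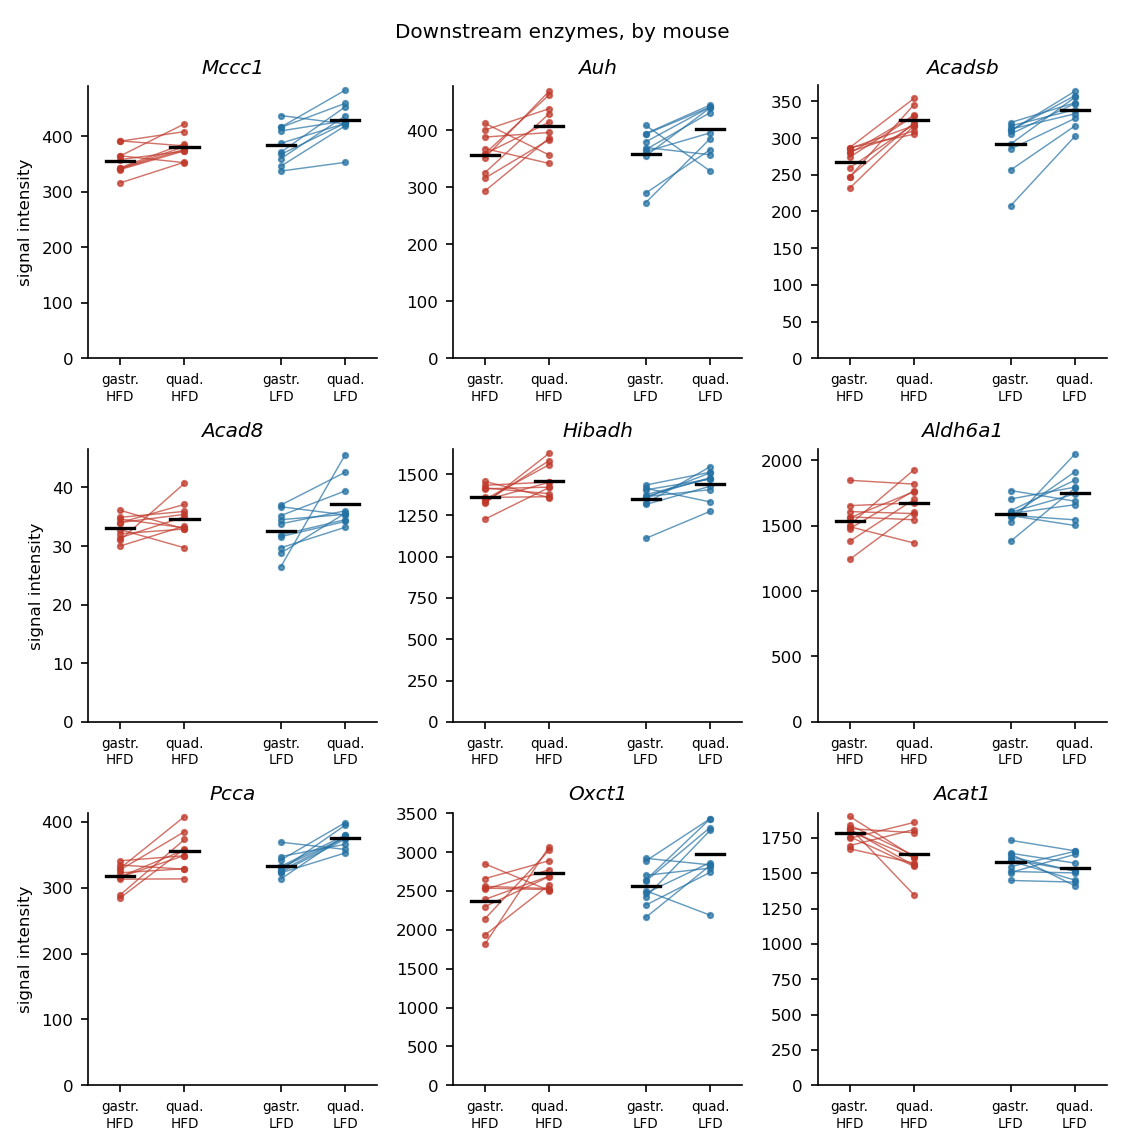
Signal intensity (y axis) of genes after the ketoacid dehydrogenase step in the gastrocnemius and the quadriceps of each mouse (x axis), for HFD and LFD mice, with a line joining the muscles of a mouse and black bars at the group means. Acadsb is lower in the gastrocnemius of all 20 mice, whereas Acat1 is lower there in 2 of 10 mice of each diet.

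The remaining pair of acetoacetate and thiolase genes passed in opposite directions. Oxct1, which activates acetoacetate to acetoacetyl-CoA in ketone body use, had 1816, 2456 and 2849 in HFD gastrocnemius, against 2506, 2689 and 3072 in HFD quadriceps, and 2160, 2564 and 2920 in LFD gastrocnemius, against 2189, 2850 and 3429 in LFD quadriceps. Its groups overlapped, with a lower gastrocnemius in 7 of 10 HFD mice and 8 of 10 LFD mice and a log2 fold change of -0.21 ± 0.053 over both diets (adjusted p = 0.00407). Acat1, the mitochondrial thiolase that ends isoleucine breakdown and also serves ketone body use, had 1672, 1804 and 1902 in HFD gastrocnemius, against 1346, 1611 and 1859 in HFD quadriceps, and 1449, 1593 and 1733 in LFD gastrocnemius, against 1411, 1516 and 1658 in LFD quadriceps. In 8 of 10 mice of each diet Acat1 was higher in the gastrocnemius, while the groups overlapped in both diets. Over both diets the fitted log2 value was 0.090 ± 0.031 (adjusted p = 0.0414), and this call was lost when any 1 of 13 mice was left out (141, 142, 143, 144, 146, 147, 148, 150, 151, 152, 153, 156 or 160), with an adjusted p of up to 0.0864.

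The aldehyde dehydrogenases of the list act on aldehydes from many sources, and none of the 3 tested passed by limma. At an unadjusted p under 0.05 over both diets 0 of 3 passed, against 28% of all genes in either direction, so that 3 genes are too few to tell. Their log2 fold changes over both diets were -0.091 (interval -0.21 to 0.033) for Aldh2, 0.027 (-0.11 to 0.17) for Aldh3a2 and -0.13 (-0.31 to 0.050) for Aldh9a1. The members under the signal limit were the cytosolic aminotransferase Bcat1 (3.6 to 4.8 over all arrays), the GABA aminotransferase Abat (5.3 to 12.7) and Aldh7a1 of lysine breakdown (5.4 to 8.2), all near the array medians of 8.8 to 9.4 or under them. In a fit of all 16475 genes, the value over both diets was 0.25 ± 0.081 (log2, adjusted p = 0.049) for Abat and -0.18 ± 0.043 (adjusted p = 0.00504) for Aldh7a1, and Bcat1 had an adjusted p of 0.436. At such signals a fold change depends on how the background was set.

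Within single mice, the median log2 difference of the 28 members (gastrocnemius minus quadriceps) was -0.16 to 0.0017 in HFD mice and -0.21 to 0.019 in LFD mice, and it was below 0 in 9 of 10 mice of each diet. Between 14 and 20 of the 28 members were lower in the gastrocnemius of an HFD mouse, and between 13 and 25 in that of an LFD mouse. Over all genes tested, the share that was lower in the gastrocnemius ranged from 43.0% to 57.6% in HFD mice and from 45.5% to 61.4% in LFD mice. The median difference of all genes tested was -0.048 to 0.0515 in HFD mice and -0.0729 to 0.0255 in LFD mice, and was also below 0 in most mice of each diet. In mice 141, 146 and 151 the median of the members was above that of all genes, and in each other mouse it was below. The mice thus differed in how many members were lower, and 1 LFD mouse (141) had 13 lower and 15 higher.

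Whether the muscle difference depended on the diet was tested as an interaction, that is the log2 fold change of gastrocnemius over quadriceps in HFD mice minus that in LFD mice. It passed for 0 of 28 members and 0 of 6479 genes by limma (0% of all genes), and at an unadjusted p under 0.05 for 1 member and 118 genes (1.82%). That member was Ppm1k, with an interaction of 0.32 (interval 0.020 to 0.62, p = 0.0371 before adjustment in the fit across all genes, adjusted p = 1.0). The median of the 28 members was 0.0043. For Bckdhb the interval was -0.27 to 0.15, for Acadsb -0.22 to 0.11, for Pcca -0.10 to 0.13 and for Dbt -0.075 to 0.54, so that the calls of Dbt and Pcca in LFD mice and of Bckdhb and Acadsb in HFD mice are not shown to differ between diets.

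The diet was set against the members in each muscle on its own. In the gastrocnemius, HFD mice had more signal than LFD mice for 1 of 28 members, Acat1, against 0.463% of all genes, and less for 0 members, against 0.216%, with 2 members (Bckdhb and Mccc1) lower at an unadjusted p under 0.05 (5.82% of all genes). In the quadriceps 0 members passed by limma in either direction, against 0.139% of all genes that were higher and 0.0463% that were lower, and 3 members (Mccc1, Ppm1k and Pcca) were lower at an unadjusted p under 0.05 (2.98% of all genes). The median log2 fold change of HFD over LFD was -0.030 in the gastrocnemius, where 16 members were below 0, against 57.2% of all genes, and -0.038 in the quadriceps, where 21 were, against 55.5%.

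Acat1 had 1672, 1804 and 1902 in HFD gastrocnemius, against 1449, 1593 and 1733 in LFD gastrocnemius, so that the lowest HFD arrays and the highest LFD arrays overlapped. The log2 fold change of HFD over LFD was 0.18 ± 0.044 (adjusted p = 0.0499, a fold of 1.13), right at the threshold. It was lost when any 1 of 14 mice was left out (141, 143, 144, 145, 146, 147, 148, 150, 152, 154, 155, 156, 159 or 160), with an adjusted p of up to 0.144. In the quadriceps Acat1 had 1346, 1611 and 1859 in HFD mice, against 1411, 1516 and 1658 in LFD mice, with a log2 fold change of 0.085 ± 0.044 (adjusted p = 0.934). Mccc1 had the smallest p of the members for the diet in the quadriceps, with 352.8, 379.2 and 422.8 in HFD mice, against 353.4, 426.2 and 483.6 in LFD mice and a log2 fold change of -0.17 ± 0.050 (adjusted p = 0.226). Without mouse 142, whose LFD quadriceps was far below the others for this gene, the adjusted p of Mccc1 was 0.0436 (0.0436 to 0.441 over the 20 mice left out in turn).

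**Figure D4:**
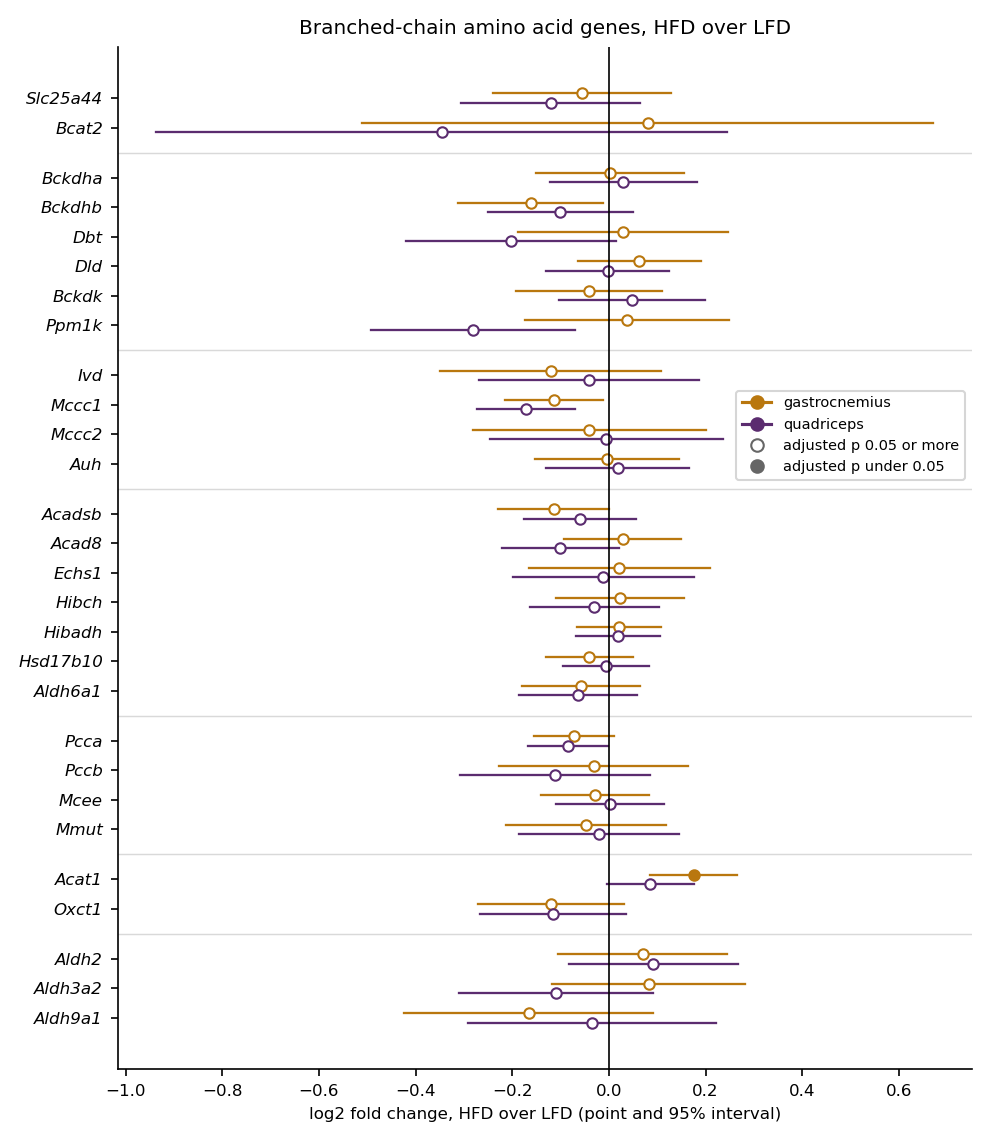
Log2 fold change of HFD over LFD (x axis) for each of the 28 members tested (y axis, grouped by pathway step), in the gastrocnemius and in the quadriceps. Points are estimates and bars are 95% intervals, and the filled point is Acat1 in the gastrocnemius (0.18), the member with an adjusted p under 0.05.

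Genes next to the pathway were counted in the same fits. Over both diets, 9.83% of all genes tested were lower in the gastrocnemius and 8.13% were higher. Among the 13 tested genes of the wider pathway, 2 were lower in the gastrocnemius over both diets and 1 was higher. Ehhadh, a peroxisomal enzyme of fatty acid oxidation, was among the lower ones (log2 fold change -0.29 ± 0.076, adjusted p = 0.00593). Acadm, the medium-chain acyl-CoA dehydrogenase, was higher (0.12 ± 0.029, adjusted p = 0.00187). None of 9 genes of the pyruvate and 2-oxoglutarate dehydrogenase complexes and their kinases passed by limma (0 higher, 0 lower), where the smallest adjusted p was 0.0576 for Dlat, the transacetylase of the pyruvate complex. Among 11 genes of the citric acid cycle 1 was lower, Suclg1 of succinyl-CoA ligase (-0.088 ± 0.030, adjusted p = 0.0316).

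Of 7 genes for amino acid transport and nitrogen handling, 3 were lower in the gastrocnemius over both diets, against 9.83% of all genes. On the log2 scale they differed by -0.40 ± 0.079 (adjusted p = 0.0002) for Glul, the glutamine synthetase, by -0.74 ± 0.16 (adjusted p = 0.000874) for Slc43a1, a transporter of large neutral amino acids, and by -0.10 ± 0.027 (adjusted p = 0.00629) for Glud1, the glutamate dehydrogenase. Among 6 regulators, Klf15, a transcription factor known to induce amino acid breakdown in muscle, was lower (-0.37 ± 0.088, adjusted p = 0.00223), and Ppargc1a, a coactivator of mitochondrial genes, was higher (0.80 ± 0.13, adjusted p = 1.55e-05). For the diet in the gastrocnemius, where 0.463% of all genes were higher in HFD mice, 3 of the 13 genes of the wider pathway were higher. These were Acadm (0.23 ± 0.041, adjusted p = 0.000826), Acaa2 (0.36 ± 0.073, adjusted p = 0.00617) and Hadha (0.28 ± 0.066, adjusted p = 0.0298), which also serve fatty acid oxidation and were named after their values were seen.

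**Figure D5:**
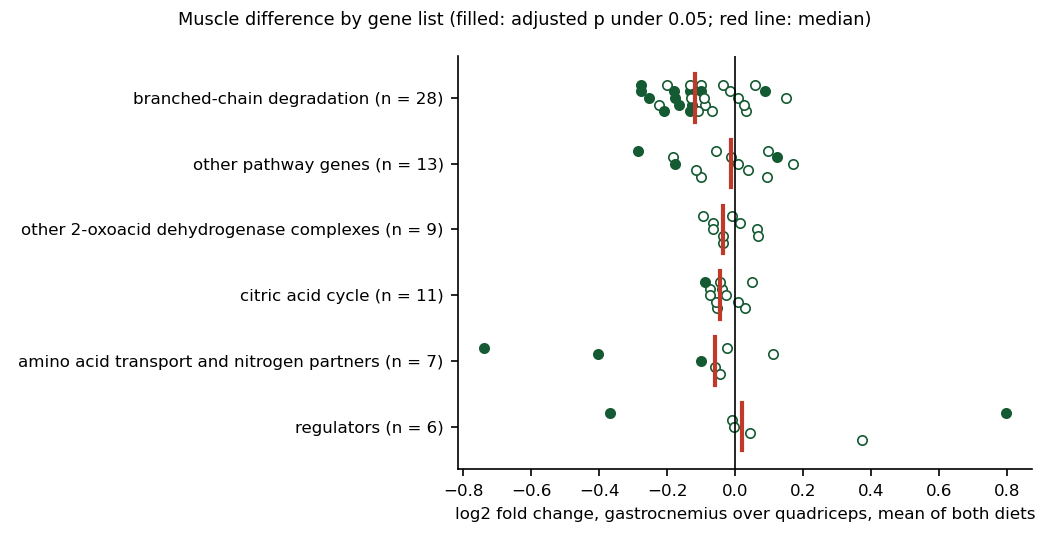
Log2 fold change of gastrocnemius over quadriceps over both diets (x axis) for the members and for the lists of neighbouring genes (y axis), with 1 point for each gene tested, filled at an adjusted p under 0.05. Red lines are list medians, which are -0.12 for the 28 members and between -0.058 and 0.022 for the 5 other lists.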

How the data were processed

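RNA of both muscles was hybridised to Affymetrix Mouse Genome 430 2.0 arrays, 1 for each muscle and mouse. By the study's methods, the authors assigned probes anew so that each Entrez gene has 1 probe set, normalized by quantiles and summarised with GCRMA, which the submitters' processing notes also name (version not given in the sources used here), and deposited signal intensity values on a linear scale. GCRMA sets the background from the sequence of the probes, so that ratios of dim genes depend on that estimate.

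The deposited table holds 16539 probe sets, and 64 controls among them were dropped. Of 16475 left, 16229 were named through RefSeq (GRCm38.p6), 28 through the platform annotation and 218 not at all. Groups and mouse numbers came from the titles. The log2 values went into linear models (lmFit and eBayes of limma 3.58.1, R 4.3.3), after a filter of a mean signal over 20, with Benjamini-Hochberg adjustment over all 6479 genes tested. Calls were made at an FDR under 0.05, with and without a fold over 1.3. Muscles were compared within each diet in a fit of the 2 groups, and the mean over both diets, the interaction and the diet effects came from a fit of all 4 groups, in which the muscles of a mouse count as separate samples. The p-values of these fits rest on the spread between the mice of a group within each muscle. The pairing of the muscles of a mouse enters only in the fits with a block on the mouse. Figures were drawn with matplotlib 3.10.9.

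Same-numbered arrays come from the same mouse, which pairs the muscles. The deviations of the muscles of a mouse from their group means correlated with a median r of -0.069 in HFD mice (-0.212 to 0.434) and 0.388 in LFD mice (-0.07 to 0.631), against -0.006 and -0.053 for different mice. A fixed or random block for the mouse, other filters, scalings and variance models, array weights and the omission of each mouse were alternatives, and marker sums as covariates were added after the data were seen.

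The number of arrays limits the precision, and reads or counts do not apply. Array medians were 8.8 to 9.4, between 38.4% and 39.5% of genes on an array were over 20, the correlation of log2 values between arrays was 0.985 to 0.9966, and no 2 arrays were identical. On data simulated from these arrays the fits were checked for recovery of known changes. The members, gene lists and tests were chosen with earlier results of these data known. Members are described with values where they passed in any comparison, were among the 3 strongest signals or belong to the committed step. Some items of the context and marker lists are not reported here.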

Additional observations from a re-analysis of the deposited data

Results flagged for a closer look

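In 112 groups of 10 arrays (28 members in 4 groups), 11 held an array whose gap to the next one, divided by the range of the group on the log2 scale, was over the 95% critical value of Dixon's test, and chance alone gives about 5% of groups, that is 1 in 20. Of these, 6 came from 1 array, the LFD gastrocnemius of mouse 142. It was the lowest of its group for Acadsb (207.6, next 256.4), Bckdha (463.5, next 592.0), Bckdhb (352.2, next 475.8), Hibadh (1110.3, next 1315.5) and Ivd (303.8, next 430.2), and the highest for Hibch (351.4, next 263.4). The LFD quadriceps of the same mouse was the lowest of its group for Mccc1 (353.4, next 419.4). In mouse 142, 61.35% of all genes tested were lower in the gastrocnemius than in the quadriceps, the highest share of any mouse. Without this mouse 4 members were lower in LFD gastrocnemius instead of 2, with an adjusted p of 0.0222 for Acadsb and 0.0398 for Bckdhb by limma.

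The other 4 arrays were each far from their group for 1 member. In HFD gastrocnemius, Aldh9a1 was highest at 65.2 in mouse 149 (next 37.5) and Ppm1k was highest at 34.5 in mouse 157 (next 29.2). In LFD quadriceps, Bcat2 was lowest at 22.1 in mouse 155 (next 47.3) and Oxct1 was lowest at 2189.4 in mouse 141 (next 2739.4).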

How the results depend on the processing

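Where a single member was followed through the alternatives, its log2 fold change kept its sign, and the median of the members moved by less than its spread between mice in all 160 repeats. Medians near 0 changed sign: that of the interaction (0.0043) was -0.0017 at a mean signal over 50 and -0.0038 to 0.031 without 1 mouse, and that of HFD over LFD in the gastrocnemius (-0.030) was -0.051 to 0.00020 without 1 mouse, the last without mouse 141. For gastrocnemius over quadriceps in LFD mice, the 2 lower members became 1 with no filter on signal, 5 with array weights, 6 in a fit of all 4 groups, 5 with the mouse as a fixed replicate block and 8 as a random block, 1 with the neutrophil sum and 0 with the adipocyte sum as a covariate, and 1 to 4 without 1 mouse. The 1 member also past a fold of 1.3 (Dbt) became 0 with no filter (adjusted p = 0.0575), with log2(value + 16) and with either covariate, 2 at any fold, and 0 to 1 without 1 mouse. In HFD mice the 0 higher members became 1 with array weights and 1 with the neutrophil sum, and the 0 members past a fold of 1.3 became 2 at any fold. Over both diets the 0 past that fold became 12 at any fold, the 11 lower members became 6 with the neutrophil sum and 10 to 12 without 1 mouse, and the 1 higher member became 0 with the fixed block, 0 with the adipocyte sum and 0 to 1 without 1 mouse. For HFD over LFD in the gastrocnemius, the 1 higher member (Acat1) became 0 with no filter, 0 with arrays scaled to a common median and 0 to 1 without 1 mouse, and the 0 past the fold became 1 at any fold. In the quadriceps the 0 lower members became 0 to 1, the 1 being Mccc1 without mouse 142. Apart from the fold threshold, whose changes follow from its construction, the cause was not tested. The counts in these repeats are of members only, with no share of all genes beside them. The block on the mouse changed no other count by over 1.5 times. Of the values of single members, 646 repeats kept their side of the threshold, 64 no longer passed and 41 newly passed. A wide spread between mice limits Bcat2, and signals near 20 limit Ppm1k, Acad8, Aldh3a2 and Aldh9a1.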
